A study of Mus musculus with 9 samples.

Results

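The genes described here are 10 transcription regulators that set and hold B cell identity: Pax5, Ebf1, Mef2c, Spi1, Spib, Irf8, Ets1, Bcl6, Bach2 and Id3. They were chosen by name from 29995 genes whose abundance was given without the immunoglobulin (Ig) genes. Each of the 10 reached the expression level required for testing and was among the 12892 genes tested. RNA-seq was done on 9 libraries, 3 from each of 3 populations sorted from the spleens of 12-week-old B6.Blimp1GFP/+ mice, which carry a green fluorescent protein (GFP) reporter at 1 allele of Prdm1, the gene for Blimp1. All mice had received 50 µg NP-LPS, a hapten coupled to bacterial lipopolysaccharide, by intraperitoneal injection 4 days earlier, so the naive cells also came from immunized animals. Naive B cells were sorted as B220+ cells with high IgD and no NP binding. Antigen-specific B cells (NP+ B cells, drawn as NP B or NP-specific B) were B220+ and NP-binding, without IgD, GFP or CD138. Antigen-specific plasma cells (PCs) were NP-binding cells without IgD that carried both GFP and CD138. Cells stained for CD4, CD8a, Ter-119 or a macrophage antigen were gated out of every population. The replicates were 3 mice according to the series design.

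B cell identity is maintained by a network of factors that switch on B cell genes and hold back the genes of other fates. EBF1 and PAX5 commit progenitors to the lineage and keep mature cells in it, the ETS family members PU.1 (Spi1), Spi-B and ETS1 and their partner IRF8 act at many of the same genes, and MEF2C acts downstream of the B cell receptor. BCL6 and BACH2 repress Prdm1 and thereby delay the plasma cell fate, whereas ID3 binds E proteins and keeps them from DNA. Blimp1 in turn is known to repress Pax5, Bcl6, Spib and Ciita. The comparisons address how far transcripts of this network differed after antigen encounter and how far they differed in PCs.

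Libraries held 20189900 to 38602300 estimated reads without Ig genes, and the shallowest were those of PCs. The 3 B cell markers Cd79a, Ms4a1 and Ptprc were detected in every library, with a summed abundance, in TPM (abundance per transcript length, on a common scale for every library), of 4739 to 5216 in naive B cells, 3896 to 4398 in NP+ B cells and 806 to 833 in PCs. The PC markers Sdc1, Prdm1 and Xbp1 summed to 118 to 138, 148 to 177 and 4050 to 5003 TPM, although the gate itself used CD138 (Sdc1) and the Prdm1 reporter. Of 6 T and NK cell markers the sum was 2.66 to 9.39 TPM in any library. The 7 myeloid markers summed to 11.2 to 12.9 TPM in naive B cells, 76.6 to 94.3 in NP+ B cells and 37.7 to 111 in PCs, of which Cd68 alone gave 45.0 to 67.6 TPM in NP+ B cells, Itgam was at 2.31 ± 0.363 TPM in naive B cells, 14.6 ± 2.06 in NP+ B cells and 3.01 ± 1.72 in PCs (called higher in NP+ than in naive B cells, limma adjusted p = 1.32e-04), and Csf1r was at or below 2.31 TPM in every library. Emr1 held 3.64 ± 0.656 TPM in naive B cells, 2.14 ± 1.34 in NP+ B cells and 0.361 ± 0.199 in PCs (called lower in PCs, PC minus naive -2.29, adjusted p = 6.16e-04). S100a8 and Lyz2 were uneven among the NP+ libraries, at 24.7 and 5.51 TPM in replicate 2, where the other NP+ libraries held 0 and at most 0.886. In PCs they were highest in replicate 3, at 18.7 and 48.2 TPM, and Cd14 was at or below 3.76 TPM in every library. Without NP+ replicate 2, the change of Ets1 from naive to NP+ B cells was -0.88, which was not called, and that of Ebf1 was 0.079. Of 7 dendritic cell markers, Bst2 made up most of the sum in PCs (272 to 370 of 281 to 379 TPM), the sum in both B cell groups was 65.4 to 80.8, Flt3 was called higher in NP+ B cells (described below), and Itgax reached at most 1.16. The 4 erythroid markers summed to at most 15.1 TPM. The part of these transcripts in the values below was not tested. PC replicate 3 stood apart from the other PC libraries. Its 4 liver markers summed to 3746 TPM against at most 25.7 in the other 2 PC libraries, and its myeloid sum of 111 TPM was the highest of the 9 libraries. Values that move with this library are given below with and without it.

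Compared with naive B cells, PCs held less transcript of all 10 factors, by 3.62-fold for Spi1 to 242-fold for Spib (PC minus naive, adjusted p between 1.38e-09 and 0.00913, limma). Across all tested genes, 26.3% were called lower in this comparison, which requires an adjusted p under 0.05 and a change of more than 2-fold, and 11.4% were called higher. For all 10 factors the highest PC library lay below the lowest naive library, as was also true of 48.7% of tested genes. In NP+ B cells the differences from naive B cells were much smaller. Only Bcl6 and Ets1 were called lower there, against a background of 10.4% called lower and 8.13% called higher, and 7 of the 10 had an adjusted p under 0.05 in the lower direction at any fold, against 23.5% of tested genes. That count of 7 depended on the fit. It was 2 (Ets1 and Spib) on the deposited log2 values, 3 and 4 at offsets of 0.1 and 1 without weights, and 6 to 9 under the other alternatives. The share of all tested genes at any fold was taken for the reported fit only, so these other counts have no background. Pax5 and Bach2 had adjusted p values up to 0.356 and 0.27 over these fits, Id3 up to 0.397 and Spi1 up to 0.174. The groups did not overlap for 7 factors, with a background of 32.4%. From NP+ B cells to PCs, 9 of the 10 were called lower and did not overlap, the exception in both counts being Mef2c, with 22.3% of tested genes called lower, 9.93% called higher and 40.9% lower without overlap. None of the 10 was called higher in any of the 3 comparisons. The median log2 change of the 10 was -0.81 for NP+ B cells minus naive, -4.78 for PCs minus naive and -4.23 for PCs minus NP+ B cells, beside medians over all tested genes of -0.16, -0.47 and -0.30. The comparisons share libraries, so these counts are not independent of each other. Sorted populations were measured in bulk, and fewer cells containing a transcript cannot be told apart from less transcript per cell.

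**Figure D1:**
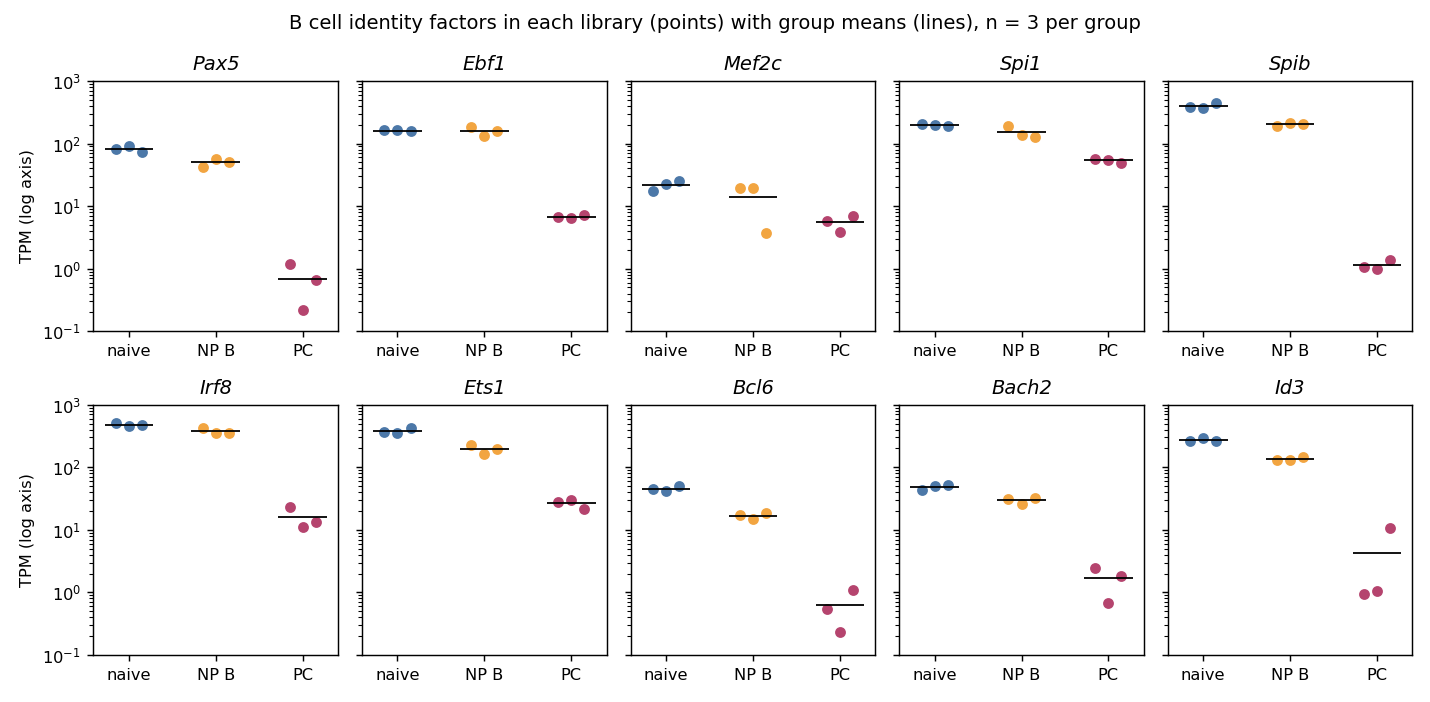
TPM of each of the 10 factors on a log axis, in naive B cells, NP+ B cells (NP B) and plasma cells (PC). Each point is 1 library and each line is the mean of 3. The PC points lie below the naive points in every panel, Mef2c in NP+ B cells splits into 2 libraries near 19 TPM and 1 at 3.72, and Id3 in PCs splits into 2 near 1 TPM and 1 at 10.7.

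Pax5 (chr4:44524757-44710487, minus strand, GRCm38) encodes the factor that keeps B cells committed. Its abundance was 81.4, 90.4 and 74.0 TPM in the 3 naive libraries, 42.9, 56.8 and 51.7 in NP+ B cells and 1.18, 0.219 and 0.665 in PCs. The 3 groups did not overlap. In NP+ B cells Pax5 was 1.63-fold lower than in naive B cells (log2 change -0.71 ± 0.14 SE, n = 3 per group, limma adjusted p = 0.00292), short of the 2-fold threshold. Its fall in PCs was far larger, to 0.839% of the naive mean (log2 change -6.20 ± 0.34, adjusted p = 6.93e-08), and 30 tested genes fell further. The PC values rest on 16.3 to 85.7 estimated reads per library. A floor of 3 reads corresponded to at most 0.191 TPM for any of the 10 factors in any library, so each of the 10 was above it in all 9 libraries, a statement that covers counting error only. At such low levels the fit on log2 (TPM + 0.5) understates a change, and a fit to estimated reads gave -7.10. Pax5 exons overlap those of Gm12462 and 5730488B01Rik on the opposite strand, and reads from these cannot be told apart in libraries that do not mark strand.

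Ebf1 (chr11:44617317-45008091, plus strand), the gene for early B cell factor 1, held 165, 163 and 158 TPM in naive libraries, 185, 133 and 160 in NP+ B cells and 6.60, 6.49 and 7.22 in PCs. Naive and NP+ libraries overlapped fully. Their means of 161.7 ± 3.61 and 159.2 ± 26.3 TPM (SD, n = 3) gave a log2 change of -0.04 with a 95% confidence interval of -0.30 to 0.21 (limma adjusted p = 0.779), an interval that leaves no room for a 2-fold change in either direction. The sign of this small value turned positive with median-of-ratios scaling and without NP+ replicate 2, and with quantile normalization the log2 change was -0.29 (limma adjusted p = 0.0231). Ebf1 fell in PCs, where it was 22.4-fold lower than in naive B cells (log2 change -4.49 ± 0.19, adjusted p = 1.09e-08) and 21.7-fold lower than in NP+ B cells (-4.44 ± 0.19, adjusted p = 1.51e-08). The PC libraries agreed closely, with an SD of 0.390 TPM. Among the 10, Ebf1 thus had the NP+ mean nearest to its naive mean (98.4% of it), whereas Pax5 stood at 61.6%.

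Spi1 (chr2:91082390-91115756, plus strand), which encodes PU.1, fell in PCs by about as much as Mef2c and by less than the other 8. Relative to the median of all genes, the change of Spi1 was -1.38 and that of Mef2c -1.46, an order that turned with Ig genes kept (-1.65 and -1.48) and with quantile normalization (-1.71 and -1.30). Spi1 held 205, 195 and 189 TPM in naive B cells, 194, 138 and 127 in NP+ B cells and 57.4, 55.6 and 49.5 in PCs. One NP+ library lay within the naive range and the other 2 below it, with a log2 change of -0.39 ± 0.14 (limma adjusted p = 0.0467) that is under 2-fold. The limma adjusted p reached 0.174 over the alternatives. It stayed under 0.05 with Ig genes kept, with quantile normalization, on genes with a mean TPM of at least 10 and on estimated counts. The same held with a replicate block and without NP+ replicate 1 or PC replicate 3, and in no other alternative. In PCs Spi1 fell 3.62-fold from the naive level (-1.86 ± 0.16, adjusted p = 2.29e-06), to 27.6% of it, and 1286 tested genes fell further. PU.1 is also a factor of myeloid cells, and the part of the myeloid transcripts described above in the Spi1 values was not tested.

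Spib (chr7:44525993-44532071, minus strand) encodes Spi-B, the ETS protein closest to PU.1 in B cells, and it fell the furthest of the 10. It held 382, 366 and 443 TPM in naive libraries, 191, 217 and 204 in NP+ B cells and 1.06, 1.00 and 1.38 in PCs. These ranges are well separated. NP+ B cells had 51.3% of the naive mean (log2 change -0.97 ± 0.10, adjusted p = 3.13e-05, limma), just inside 2-fold, and PCs had 0.290% (-7.92 ± 0.25, adjusted p = 1.38e-09). Of the 12892 tested genes, 6 fell further in PCs. In rank of group means among tested genes, Spib went from percentile 97.4 in naive B cells to 93.9 in NP+ B cells and 14.3 in PCs, whereas Spi1 went from 94.7 to 91.6 and 82.5. A PC library held 49.1 to 65.5 estimated Spib reads.

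The diverging course of these close relatives is visible within single libraries, where scaling cancels. The Spi1 to Spib ratio of TPM was 0.537, 0.533 and 0.427 in naive libraries, 1.02, 0.637 and 0.625 in NP+ B cells and 54.1, 55.4 and 35.7 in PCs. Spib was thus the more abundant transcript in all 3 naive libraries and Spi1 in all 3 PC libraries. This ratio and those below were chosen after the values had been seen and were not tested.

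Irf8 (chr8:120736358-120756694, plus strand) encodes an interferon regulatory factor that binds DNA with PU.1 or Spi-B, and it was the most abundant of the 10 in both B cell groups. Its values were 509, 460 and 468 TPM in naive B cells, 417, 350 and 359 in NP+ B cells and 23.3, 11.1 and 13.2 in PCs. The NP+ values all lay below the naive ones, yet the log2 change of -0.36 ± 0.13 missed the adjusted threshold (limma adjusted p = 0.0515). Over the alternatives the limma adjusted p was 0.00433 to 0.347. It was under 0.05 with Ig genes kept, with quantile normalization and on estimated counts. It was not with median-of-ratios scaling, on the deposited log2 values or when any 1 naive library was left out. PCs had 3.31% of the naive mean (-4.95 ± 0.20, adjusted p = 8.26e-09).

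Ets1 (chr9:32636221-32757820, plus strand), a factor known to restrain plasma cell formation, was at 373, 357 and 430 TPM in naive B cells, 225, 161 and 198 in NP+ B cells and 28.1, 30.1 and 21.8 in PCs. The 3 groups were fully separated. It fell 2.01-fold in NP+ B cells (log2 change -1.01 ± 0.13, limma adjusted p = 1.98e-04), so close to the threshold that 7 of 20 alternative settings gave less than 2-fold, among them leaving out naive replicate 3 (-0.93) or NP+ replicate 2 (-0.88). Its fall in PCs was 14.4-fold from the naive level (-3.85 ± 0.17, adjusted p = 1.51e-08), to 6.89% of it, which left Ets1 the second most abundant of the 10 in PCs after Spi1.

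Mef2c (chr13:83504034-83667080, plus strand), a MADS-box factor needed for B cell proliferation after receptor signalling, was the least abundant of the 10 in naive B cells. It held 17.6, 22.9 and 25.5 TPM there, 19.3, 19.7 and 3.72 in NP+ B cells and 5.82, 3.79 and 6.90 in PCs. NP+ replicate 3 lay apart, at the level of the PCs, with 718 estimated reads against 3830 and 3846 in the other 2 libraries of the group. With it, the NP+ mean was 14.2 ± 9.11 TPM and the log2 change from naive B cells was -0.91 ± 0.47 (limma adjusted p = 0.140), which became -0.16 without it. The change from NP+ B cells to PCs depended on the same library. It was -1.02 ± 0.57 with all libraries (adjusted p = 0.157) and -1.77 without NP+ replicate 3 (adjusted p = 3.29e-04), while PCs stood at 25.04% of the naive mean (-1.93 ± 0.53, adjusted p = 0.00913). The summed B cell markers of NP+ replicate 3 (4398 TPM) were the highest of its group. Its summed PC markers (177 TPM, against 161 and 148) and its Prdm1 value (7.24 TPM, against 3.09 and 3.94) were the highest as well. The part of other cells in its Mef2c value was not tested.

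Bcl6 (chr16:23965052-23988852, minus strand) encodes the repressor that defines germinal center B cells and opposes Prdm1. It had the largest early decline of the 10. Its values were 44.4, 41.2 and 50.1 TPM in naive B cells, 17.4, 14.7 and 18.6 in NP+ B cells and 0.551, 0.228 and 1.09 in PCs. Bcl6 fell 2.64-fold in NP+ B cells (log2 change -1.40 ± 0.16, limma adjusted p = 6.95e-05), a call lost on the deposited log2 values at nearly the same size (-1.40, adjusted p = 0.0627). In PCs it fell to 1.38% of the naive mean (-5.42 ± 0.31, adjusted p = 9.34e-08), on 15.6 to 71.9 estimated reads, and a fit to estimated reads gave -6.35. Exons of Bcl6 overlap those of Gm37419 on the opposite strand.

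Bach2 (chr4:32238804-32586108, plus strand), whose product represses Prdm1 as a dimer with small MAF proteins, held 43.8, 50.0 and 51.8 TPM in naive B cells, 31.5, 26.4 and 32.8 in NP+ B cells and 2.497, 0.672 and 1.84 in PCs. The ranges did not touch. It was 1.61-fold lower in NP+ B cells (log2 change -0.69 ± 0.16, limma adjusted p = 0.00713), which is not a call, and in PCs it fell 24.3-fold from the naive level (-4.61 ± 0.29, adjusted p = 2.44e-07). The levels of Bach2 and Bcl6 overlapped in naive B cells and were separated in NP+ B cells, where Bach2 was the more abundant. Bach2 exons overlap those of Bach2os on the opposite strand.

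Id3 (chr4:136143497-136145755, plus strand), the inhibitor of E proteins, was at 261, 289 and 265 TPM in naive B cells, 132, 131 and 148 in NP+ B cells and 0.956, 1.04 and 10.7 in PCs. It was 1.99-fold lower in NP+ B cells (log2 change -0.99 ± 0.22, limma adjusted p = 0.00533), just short of 2-fold, and crossed that line in 5 of 20 alternative settings. The fall in PCs was -6.54 ± 0.48 (adjusted p = 7.11e-07), or 93.0-fold. PC replicate 3, the library with liver transcripts and the highest myeloid sum, gave the high value, with 194 estimated Id3 reads against 17.5 and 19.6 in the other 2. Without it the change was -7.50 from naive B cells and -6.51 from NP+ B cells, compared with -5.55 when it was kept. The part of these other transcripts in the Id3 value was not tested.

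**Figure D2:**
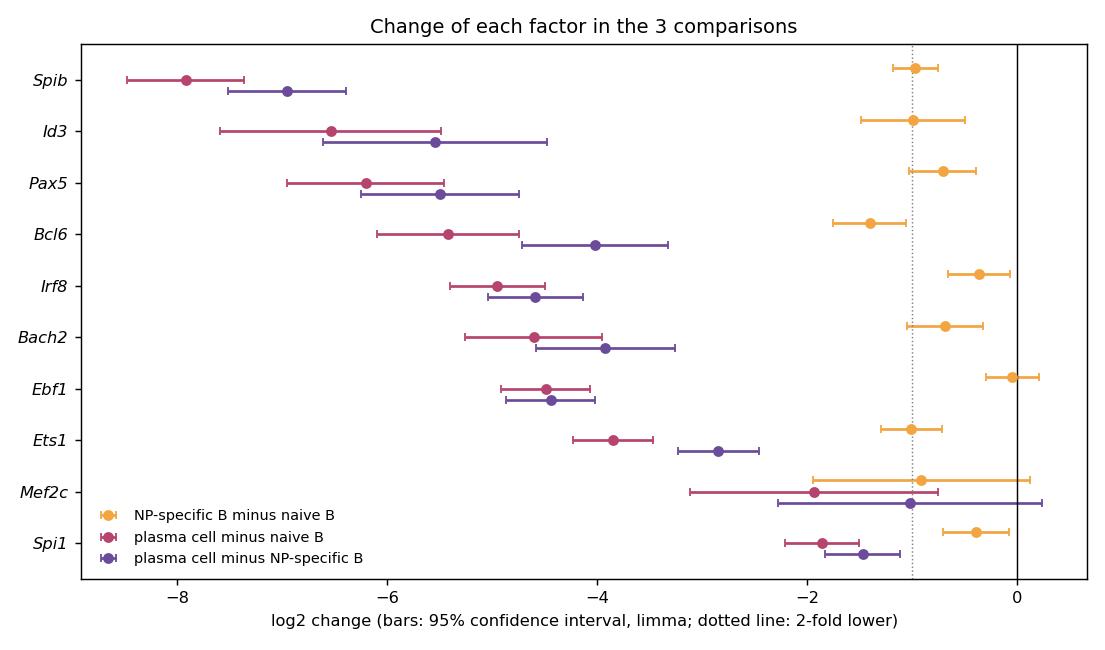
Log2 change of each factor (points) with its 95% confidence interval (bars, limma) for NP+ B cells minus naive B cells, PCs minus naive B cells and PCs minus NP+ B cells, ordered by the change in PCs. The dotted line marks a 2-fold lower level. Spib lies furthest to the left at -7.92, Spi1 and Mef2c lie at -1.86 and -1.93, and the interval of Ebf1 for NP+ minus naive B cells spans 0.

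The order of abundance among the 10 differed between the populations. TPM is corrected for transcript length, so levels can be set beside each other. In naive B cells the order was Irf8 (478.9 ± 26.3 TPM, SD, n = 3), Spib (397 ± 40.4), Ets1 (387 ± 38.5), Id3 (271 ± 15.4), Spi1 (196 ± 8.20), Ebf1 (162 ± 3.61), Pax5 (81.9 ± 8.21), Bach2 (48.5 ± 4.16), Bcl6 (45.2 ± 4.51) and Mef2c (21.99 ± 4.03). Neighbours whose libraries overlapped were Spib with Ets1 and Bach2 with Bcl6. In PCs the order began with Spi1 (54.1 ± 4.16 TPM), Ets1 (26.6 ± 4.30) and Irf8 (15.9 ± 6.52), followed by Ebf1 (6.77 ± 0.390) and Mef2c (5.51 ± 1.58). Id3 was next at 4.23 ± 5.59 TPM on the strength of replicate 3, and Bach2 (1.67 ± 0.924), Spib (1.15 ± 0.205), Pax5 (0.688 ± 0.481) and Bcl6 (0.623 ± 0.435) closed the list. Spi1 was clear of all others in PCs, whereas Ets1 overlapped Irf8, Ebf1 overlapped Mef2c, Mef2c overlapped Id3, and the last 4 overlapped their neighbours.

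Sequences around the gene starts were searched, as a description, for letters that Blimp1, EBF1 and PU.1 are known to bind. RefSeq promoters of GRCm38.p6, each with 250 bases before and 50 after a start, were found for 8 of the 10 genes, all but Spi1 and Ets1 (13 promoters). The letters AGNGAAAG, a core that Blimp1 binds, were found on either strand in 4 of the 13 promoters, from 4 genes (Pax5, Bach2, Ebf1 and Mef2c), against 8.63% of 32851 promoters of the same length. The EBF1 letters CCCNNGGG were found in promoters of Spib and Irf8, with 13.7% of all promoters holding them, and the PU box GAGGAA in those of Id3, Ebf1, Mef2c and Bcl6, with 28.3%. Mef2c held the Blimp1 letters, and Irf8 the EBF1 letters, after the start, at bases 5 to 12 and 6 to 13. The other pairs of gene and motif named here had a match upstream. The 3 motifs do not contain one another. A match describes the letters and is no evidence of binding. Windows of 60 bases are printed 5′ to 3′ on the strand of the gene, with the match in capitals. The first 3 hold the Blimp1 letters on the opposite strand, so they read as the reverse complement, and the window of Spib holds a pair of overlapping EBF1 matches.
Pax5, chr4:44710852-44710911, minus strand, match 191 bases upstream of the start: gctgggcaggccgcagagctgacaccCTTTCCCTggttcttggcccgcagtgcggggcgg
Bach2, chr4:32417375-32417434, plus strand, match 18 bases upstream: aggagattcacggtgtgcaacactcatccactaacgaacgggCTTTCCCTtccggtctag
Ebf1, chr11:44620032-44620091, plus strand, match 170 bases upstream: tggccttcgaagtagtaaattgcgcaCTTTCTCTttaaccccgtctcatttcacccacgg
Spib, chr7:44532103-44532162, minus strand, matches 65 and 64 bases upstream: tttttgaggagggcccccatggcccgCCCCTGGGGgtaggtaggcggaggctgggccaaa

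The core of the Pax5 and Bach2 windows is the same 8 letters, and that of Ebf1 differs at the free position. Spib, the factor with the largest fall, Id3, Irf8 and Bcl6 had no Blimp1 letters in the promoters searched, which says nothing of sites elsewhere. The RefSeq starts used for Bach2 and Ebf1 lie inside the GENCODE gene spans given above, and that of Pax5 lies outside its span. The reason was not examined.

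Relatives of the 10 by protein family were examined next. Of 12 relatives, 10 were tested, and 3 were called lower and 2 higher in NP+ B cells than in naive B cells (median log2 change -0.63). Over all tested genes, 10.4% were called lower and 8.13% higher in this comparison, and 26.3% and 11.4% in PCs against naive B cells. In PCs against naive B cells 2 relatives were lower and 2 higher (median -0.51). These counts became 8 and 0 when Ig genes were kept in the scaling, where 64.5% of all genes tested were called lower. With median-of-ratios scaling they were 0 and 2, where 14.1% of all genes tested were called lower and 18.2% higher. The largest rise was that of Mef2b, a relative of Mef2c known from germinal center B cells. Mef2b held 6.29, 5.98 and 3.70 TPM in naive B cells, 143, 64.8 and 105 in NP+ B cells and 14.2, 13.1 and 14.5 in PCs, without overlap between groups. Its rise in NP+ B cells measured 4.12 ± 0.38 on the log2 scale (limma adjusted p = 1.88e-05) and it fell from there to PCs (-2.78 ± 0.31, adjusted p = 2.09e-05). The Mef2b to Mef2c ratio was below 1 in all 3 naive libraries (0.145 to 0.358) and above 1 in the other 6 (2.11 to 28.2). The value of 28.2 comes from NP+ replicate 3, the library with low Mef2c, and the next highest was 7.42. Exons of Mef2b overlap those of Borcs8 on the same strand, and the division of reads between them rests on the pseudoalignment.

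Id2, the closest relative of Id3 among those tested, went the other way from Id3 in NP+ B cells. Its values were 7.63, 11.1 and 10.7 TPM in naive B cells, 54.4, 57.2 and 54.7 in NP+ B cells and 3.29, 3.87 and 23.7 in PCs. The NP+ values stood above all others (log2 change from naive B cells 2.45 ± 0.43, limma adjusted p = 0.00121), and those of PCs were lower again (-2.92 ± 0.46, adjusted p = 2.79e-04, and -3.77 without PC replicate 3, which held the highest PC value of Id2 as well as of Id3). Within libraries the Id2 to Id3 ratio was 0.0293 to 0.0406 in naive B cells, 0.370 to 0.436 in NP+ B cells and 2.21 to 3.71 in PCs. Id3 therefore exceeded Id2 in all 6 B cell libraries and Id2 exceeded Id3 in all 3 PC libraries.

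Bach1, the ubiquitous relative of Bach2, fell from 5.43 ± 0.733 TPM in naive B cells to 1.56 ± 0.905 in NP+ B cells (log2 change -1.62 ± 0.31, limma adjusted p = 0.00195) and stood at 4.83 ± 0.491 in PCs. Its rise from NP+ B cells to PCs (1.47 ± 0.31, adjusted p = 0.00207) was not called with Ig genes kept (0.51). Fli1, an ETS factor close to ETS1, fell in NP+ B cells (-1.27 ± 0.14, adjusted p = 6.35e-05), to 64.4 ± 4.13 TPM, and was at 59.2 ± 12.9 TPM in PCs. Mef2a held 34.97 ± 3.51, 25.7 ± 7.06 and 31.7 ± 8.41 TPM and was not called in any comparison. Id1 and Ebf4 were too low to be tested.

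**Figure D3:**
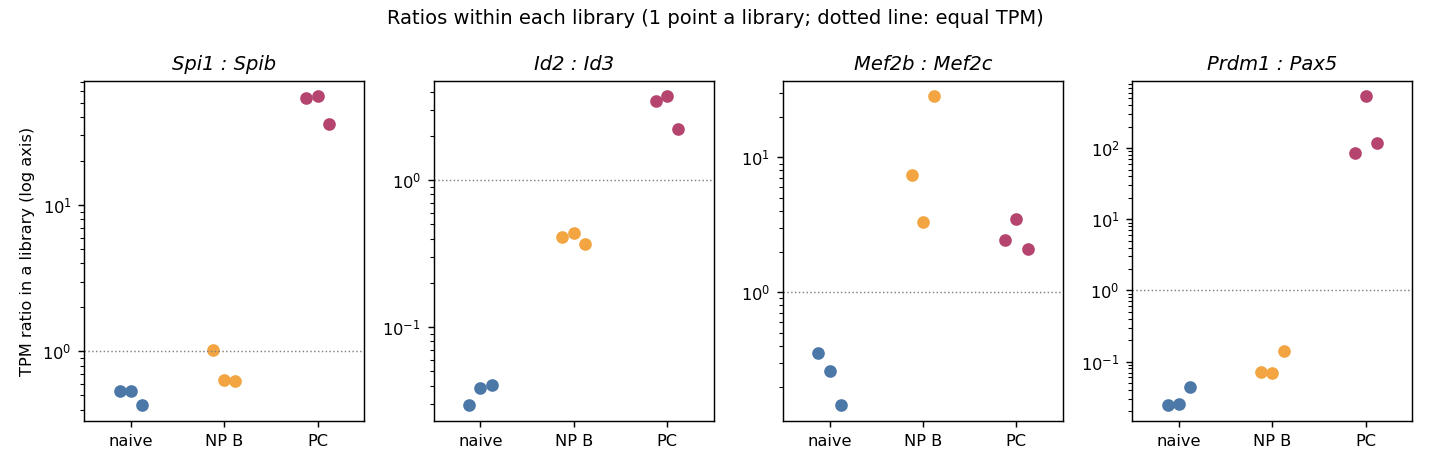
Ratio of TPM within each library on a log axis for Spi1 to Spib, Id2 to Id3, Mef2b to Mef2c and Prdm1 to Pax5, with 1 point per library in naive B cells, NP+ B cells (NP B) and plasma cells (PC). The dotted line marks equal TPM. All PC points lie above it in the 4 panels and all naive points below it.

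Known target genes of these factors were partly lower as well. Of 11 B cell targets, 4 were called lower and 0 higher in NP+ B cells than in naive B cells (median log2 change -0.53), and 9 were lower and 0 higher in PCs (median -2.96). Over all 12892 genes tested, 10.4% were called lower in NP+ B cells and 26.3% in PCs, with medians of -0.16 and -0.47. The shares called higher were 8.13% and 11.4%, and the lists that follow have the same background. Fcer2a, which encodes CD23, fell in NP+ B cells from 825 ± 29.99 to 206 ± 18.3 TPM (-2.01 ± 0.10, limma adjusted p = 6.08e-07) and to 1.34 ± 0.615 in PCs (-8.86 ± 0.25, adjusted p = 7.11e-10). Ciita, the coactivator of MHC class II genes, fell in both steps, from 192 ± 5.71 to 82.0 ± 5.54 and 0.542 ± 0.178 TPM (PC minus naive -7.55 ± 0.25, adjusted p = 1.45e-09). Cr2, the gene for CD21, and P2ry10, a lysophospholipid receptor gene, were the other 2 called lower in NP+ B cells, with log2 changes of -1.09 and -1.48. The call of Cr2 was lost with median-of-ratios scaling (-0.98).

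Targets with the largest falls in PCs also included the inhibitory receptor Cd22 (-7.69 ± 0.23) and Cd72 (-7.27 ± 0.34), a further inhibitory receptor. Components of the B cell receptor fell less, with Cd79a at -2.87 ± 0.07 and Cd79b at -1.71 ± 0.08 for PCs minus naive. Blnk and Btk were not called in PCs. The adaptor Blnk held 346 ± 14.5, 438 ± 27.2 and 364 ± 24.7 TPM in naive B cells, NP+ B cells and PCs, and the kinase Btk 151 ± 5.57, 131 ± 6.48 and 78.4 ± 1.404 (PC minus naive -0.94 ± 0.09, limma adjusted p = 5.25e-06, under 2-fold). Ms4a1, the gene for CD20, held 864 ± 101 TPM in naive B cells and 1277 ± 144 in NP+ B cells, a log2 difference of 0.56 ± 0.11, under 2-fold, and in PCs it fell by 2.96 ± 0.12.

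Of 13 other B lineage factors, 1 was called lower and 1 higher in NP+ B cells (median log2 change -0.16), and 8 lower and 1 higher in PCs against naive B cells (median -1.66). Lmo2, a LIM-domain factor, had the largest fall of this list, with 217 ± 13.1, 211 ± 21.6 and 6.10 ± 2.52 TPM (PC minus naive -5.11 ± 0.22, limma adjusted p = 1.17e-08). Klf2 (-2.84 ± 0.35), Nfatc1 (-2.71 ± 0.16), Runx1 (-2.59 ± 0.31), Runx3 (-2.51 ± 0.20), Pou2f2 (-2.16 ± 0.16), Foxo1 (-1.66 ± 0.33) and Ikzf1 (-1.42 ± 0.17) also fell, the call of Ikzf1 being lost with median-of-ratios scaling (-0.92). Runx1 was the 1 called lower in NP+ B cells (-1.09 ± 0.26, adjusted p = 0.00641), and the E protein gene Tcf4 the 1 called higher (1.21 ± 0.12, adjusted p = 3.56e-05). The Runx1 call was lost with median-of-ratios scaling (-0.98), on the deposited log2 values (adjusted p = 0.0649), at an offset of 0.1 (adjusted p = 0.0556), without naive replicate 2 (-0.96) and without NP+ replicate 1 (-0.95). Pou2af1, the coactivator of octamer factors, was higher in PCs, with 190 ± 7.88, 171 ± 14.6 and 461 ± 29.3 TPM (PC minus naive 1.27 ± 0.09, adjusted p = 6.29e-07), a call lost when Ig genes were kept in the scaling (0.05) and with quantile normalization (0.98). Ikzf3 held 133 ± 16.5, 138 ± 5.76 and 99.2 ± 14.5 TPM and was not called.

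Among 6 partners of the 10, the small MAF gene Mafk, whose product dimerizes with BACH2, fell in NP+ B cells (log2 change -1.13 ± 0.18, limma adjusted p = 5.92e-04) and in PCs (-2.56 ± 0.21, adjusted p = 1.99e-06). Mta3, a corepressor subunit that works with BCL6, held 46.7 ± 4.63, 50.9 ± 5.37 and 3.52 ± 1.501 TPM and fell in PCs (-3.62 ± 0.25, adjusted p = 3.90e-07). In all, 1 partner was called lower in NP+ B cells than in naive B cells and 3 in PCs, with 0 called higher in either (medians -0.46 and -1.17). The corepressor Bcor made up the 3 and was not called with median-of-ratios or quantile scaling. The E protein genes Tcf3 and Tcf12, whose products ID3 binds, held 150 ± 10.002, 109 ± 16.5 and 83.5 ± 14.3 TPM and 35.5 ± 3.47, 25.6 ± 4.23 and 59.4 ± 12.1 TPM, neither called against naive B cells.

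Genes that PAX5 is known to repress were compared as well. Of 4 tested, 3 were called higher in PCs relative to naive B cells (Cd28, Flt3 and Xbp1) and 1 in NP+ B cells (Flt3). Xbp1 (PC minus naive 5.12 ± 0.11, limma adjusted p = 1.02e-10) is also counted among the PC markers above and the PC regulators below. Over all tested genes, 11.4% and 8.13% were called higher in these comparisons. Cd28, a costimulatory receptor gene, was at 0.886, 0.456 and 0.730 TPM in naive B cells, 0.127, 0.671 and 1.495 in NP+ B cells and 133, 141 and 105 in PCs (PC minus naive 6.74 ± 0.38, limma adjusted p = 8.60e-08). Flt3, a growth factor receptor gene, instead peaked in NP+ B cells at 17.7 ± 1.80 TPM, against 2.16 ± 0.341 in naive B cells and 4.83 ± 0.456 in PCs (NP+ minus naive 2.77 ± 0.21, adjusted p = 5.34e-06). Its call in PCs against naive B cells lay at 2-fold (1.00) and was lost with Ig genes kept (0.06), at an offset of 1 (0.89), without naive replicate 1 (0.89) and without PC replicate 1 (0.93). Notch1 was not called, at 6.21 ± 1.25, 6.52 ± 2.06 and 10.2 ± 4.75 TPM. Csf1r and Ccr2 were too low to be tested. Igj, the joining chain gene, is listed with the Ig genes and was not tested, and in the full table it held 1.61, 2.53 and 4.96 TPM in naive B cells, 465, 372 and 273 in NP+ B cells and 16469, 14196 and 16488 in PCs.

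The 3 PC regulators Prdm1, Irf4 and Xbp1 were all called higher in PCs, although Irf4 was not called against naive B cells with Ig genes kept (0.91 in place of 2.12). Irf4 was the 1 called lower in NP+ B cells than in naive B cells (-1.20 ± 0.27, limma adjusted p = 0.00555), a call lost without NP+ replicate 1 (-0.92). Irf4 encodes the other IRF that pairs with PU.1 and Spi-B, and it held 25.1 ± 3.01, 11.1 ± 3.58 and 112 ± 22.6 TPM in naive B cells, NP+ B cells and PCs while Irf8 held 479, 376 and 15.9. The Prdm1 to Pax5 ratio was 0.0242 to 0.0437 in naive libraries, 0.0694 to 0.140 in NP+ B cells and 84.5 to 532 in PCs. Prdm1 was part of the gate through its reporter, so this ratio describes the sort as well as the cells.

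From NP+ B cells to PCs, the numbers called lower and higher were 8 and 0 of the 11 targets, 8 and 2 of the 13 other B lineage factors, 4 and 1 of the 6 partners, and 3 and 2 of the 10 tested relatives, beside 22.3% lower and 9.93% higher over all genes tested. With median-of-ratios scaling the lower calls of Foxo1 (-0.73), Ikzf1 (-0.93), Mef2d (-0.89), Cd79b (-0.87), Bcor (-0.66) and Ncor1 (-0.96) were lost, which left 2 partners lower. With quantile normalization 1 partner was called lower, and without NP+ replicate 1 the number was 2. With Ig genes kept in the scaling, the numbers called higher were 0 of the other B lineage factors, 0 of the partners and 1 of the relatives. Over all tested genes, 13.9% were called lower with median-of-ratios scaling, 14.3% with quantile normalization and 21.1% without NP+ replicate 1. With Ig genes kept, 59.7% were called lower and 3.41% higher.

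**Figure D4:**
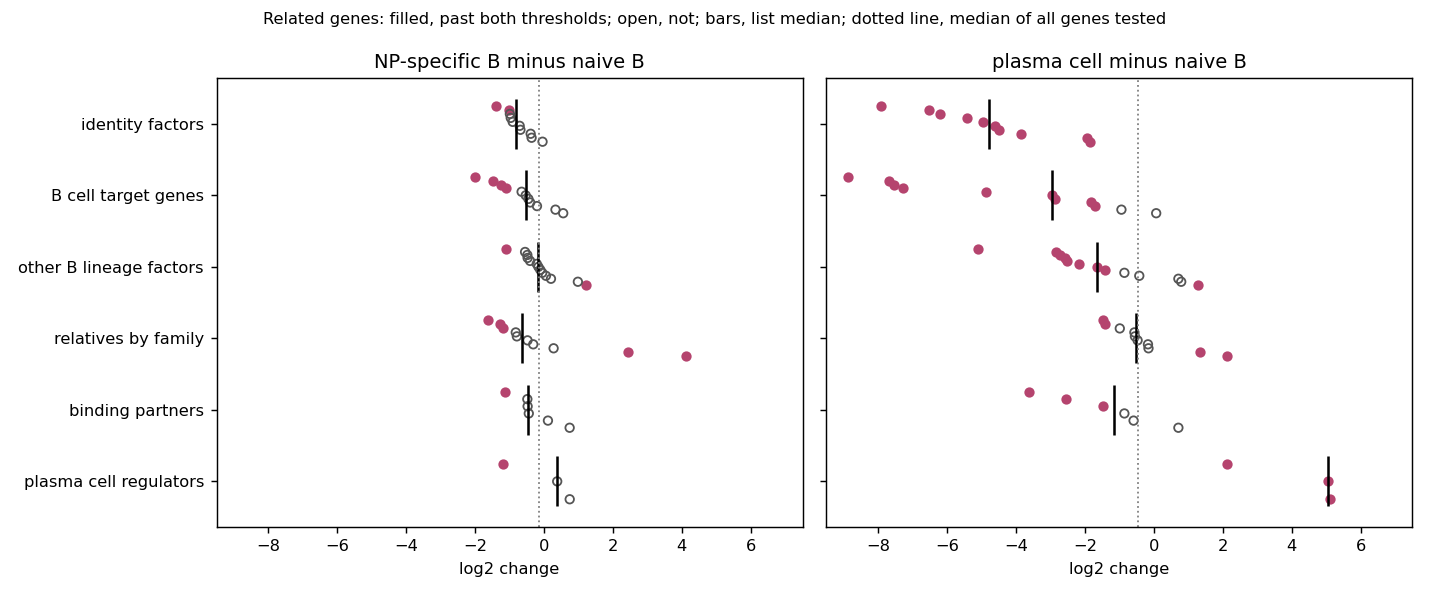
Log2 change of each gene of the 10 identity factors and of 5 lists of related genes, for NP+ B cells minus naive B cells and for PCs minus naive B cells. Filled points were called, open points were not, bars are list medians and the dotted line is the median of all tested genes. In PCs all 10 identity factors are filled and lie left of 0, and the relatives by family lie on both sides of it.

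Genes whose profile over the 9 libraries was nearest to each factor were found by the distance between centred log2 (TPM + 0.5) values, and the correlations that go with them describe 9 libraries in 3 groups. Nearest to Spib were Cd22 (distance 0.798, Pearson r = 0.997), Ciita and Cd72. Pax5 was nearest to Tnfaip8l2 (0.682), Ncf1 and Cd40, Ebf1 to Cd2 (0.416), Tspan32 and Myo1e, and Irf8 to Samd9l (0.482), Cd38 and Slc44a2. Ets1 lay nearest to Sipa1 (0.4998), Acap1 and Fcrl1, Bcl6 to March1 (0.636), Il21r and Cd200, and Bach2 to Ffar1 (0.923), Slc28a2 and Pstpip1. Id3 had Hhex (0.672), Haao and Lta nearest, and Spi1 had Wwp2 (0.284), Sergef and Aacs. Mef2c, with its split NP+ group, had Hemgn (0.803), Fam213b and Tmem204. Among the 10 themselves the nearest pair was Ebf1 and Irf8, at a distance of 1.00.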

How the data were processed

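RNA-seq values of 9 libraries (3 groups, 3 mice) were used. Per the labels, cDNA came from poly(A) capture with a SMARTer v4 kit and Nextera XT libraries, and reads were pseudoaligned with kallisto (mm10). The authors deposited TPM values and voom log2 values per gene symbol, each with and without 322 Ig genes, of which the tables without Ig genes were used unless stated. No deposited fold changes were used. TPM values were passed to voom and fitted with limma 3.58.1 in R 4.3.3, with 3 group means and no block, after the authors' methods. Genes reaching a TPM of 1 in 3 or more libraries entered the test (12892), p-values were adjusted by Benjamini-Hochberg over all of them, and a call required an adjusted p under 0.05 and over 2-fold. Estimated reads were recovered from the deposited log2 values, whose value at 0 TPM stands for 0.5 counts. The scripts were tested on simulated data. Members and lists were chosen with earlier results of these data known. The text names the 10 factors, genes of the lists of targets, relatives, partners, other B lineage factors, PC regulators, PAX5-repressed genes and cell type markers (Adgre1 under the older symbol Emr1), and the 3 nearest genes of each factor. Coordinates are from GENCODE M21 (GRCm38) and promoters from RefSeq. Alternatives were other scalings, filters, offsets, estimated counts, the deposited log2 values, 6 libraries only, a replicate block, and leaving out each library. Some genes were removed from these lists without regard to their values and are not reported here. List counts and medians cover every remaining gene, named or not. The lists share some genes, such as Irf4 (relatives and PC regulators), Xbp1 (PAX5-repressed genes and PC regulators), and Tcf3 and Tcf12 (partners and other B lineage factors).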

Additional observations from a re-analysis of the deposited data

How the results depend on the processing

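The count of 10 factors called lower in PCs against naive B cells was 10 under each of 20 alternatives. The share of all genes called lower there was 12.5% with no filter on low values, 14.1% with median-of-ratios scaling and 64.5% with Ig genes kept. The count of factors from NP+ B cells to PCs lay between 9 and 10 when each library was left out. The count called lower in NP+ B cells (2) was 4 with quantile normalization, 3 with Ig genes kept (Id3 added at -1.004), 1 with median-of-ratios scaling, on estimated counts, and at offsets of 0.1 and 1, 0 on the deposited log2 values, and 2 to 3 when each library was left out, beside 10.4% of all genes (7.57% with quantile normalization, 11.6% with Ig genes kept). That share of all genes was 7.93% with median-of-ratios scaling, 11.4% on estimated counts and 9.53% on the deposited log2 values. At offsets of 0.1 and 1 it was 10.3% and 7.66%. Ets1, Spib and Id3 lie at about 2-fold, and Bcl6 lost its call on the deposited log2 values through its adjusted p (0.0627) at an unchanged size (-1.40). The change of Ebf1 between these groups turned to 0.067 with median-of-ratios scaling, was -0.29 with quantile normalization, and lay between -0.16 and 0.079 when each library was left out (0.079 without NP+ replicate 2). Keeping Ig genes moved the median of all genes to -1.40 for PCs minus naive (median-of-ratios 0.02, quantile -0.07). Relative to the median of all genes, Spi1 changed by -1.71 to -1.38, Mef2c by -1.48 to -1.30 and Spib by -7.89 to -6.94 over these scalings. Mef2c was called lower in PCs than in NP+ B cells with Ig genes kept (-1.96). Of 600 changes of the 10 factors under alternatives, 580 kept their direction and side of the threshold, 10 gained a call, 8 lost one and 2 turned sign. Replicate numbers did not pair the libraries (deviations of 9 same-numbered pairs correlated at -0.07 to 0.07, and 7 of 18 were best with their own number), and a fit with the replicate number as a block gave 2, 10 and 9 calls, as without it. Depth limits Pax5, Bcl6, Bach2, Spib and Id3 in PCs, which rest on 15.6 to 194 reads. Groups held 3 libraries each, and no test of outlying libraries was run.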
